A study of Mus musculus with 18 samples.

Results

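The uroplakin-high urothelial cells of the mouse bladder were selected by their own uroplakin reads. In each of 5 single-cell libraries of whole bladder, a barcode with at least 500 UMIs (unique molecular identifiers, 1 per captured RNA molecule) counted as urothelial when 13 genes (Krt5, Krt15, Krt7, Krt8, Krt18, Krt19, Epcam, Sfn, Perp, Upk1a, Upk1b, Upk2 and Upk3a) made up at least 1% of its UMIs. The 25% of these cells with the highest summed share of Upk1a, Upk1b, Upk2 and Upk3a in their own library, called members below, numbered 1968. The comparison group was the other 5914 urothelial cells of the same libraries, out of 22726 barcodes in the 5 tables.

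All animals were C57BL/6 mice without a stated genetic change or treatment, and each library pooled several animals. The 2 male libraries held cells of 3 males each, aged 22 months and 3 months. The 3 mixed libraries held cells of 2 females and 2 males each: 2 libraries at 12 months, called replicates 1 and 2, and 1 library at 24 months. Samples that the selection did not use were 1 library of nuclei (12 months, 2 females and 2 males), 1 detrusor-enriched cell library (14 months, 2 females and 2 males), 4 sections read with Visium spots (2 at 22 months and 2 at 14 months, 4 males in each label) and 6 bulk libraries from 12-month females (3 of intact bladder and 3 of dissociated bladder, 3 females in each label). The labels do not say whether sections or bulk libraries of a group shared animals, so p-values over them measure the spread between these samples. For sections it is the spread of the difference within each section.

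The urothelium is the stratified lining of the bladder. Basal cells attached to the basement membrane give rise to intermediate cells, and large umbrella cells form the surface that faces the urine. Umbrella cells make uroplakins, membrane proteins that assemble into rigid plaques on the apical surface. In these plaques the tetraspanins Upk1a and Upk1b pair with Upk2 and Upk3a, and the pairs travel together from the endoplasmic reticulum to the surface. Mature umbrella cells are also known for Krt20, whereas Trp63, a transcription factor of the basal and intermediate layers, is normally switched off in them.

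Library depth differed. The members had a median of 3739 to 4850 UMIs in male and 15601 to 22445 in mixed libraries, and in each library this was above the median of the other urothelial cells (3025 to 3956 and 12414 to 16821). The male tables use barcodes of 14 bases and list 27775 genes. The mixed ones use barcodes of 16 bases and list 27998 genes, so sex mix and library chemistry cannot be told apart. Of the 10 pairs of libraries, 4 shared barcodes (1, 6, 12 and 64), and no member's barcode was shared. The 22-month male library stood apart in RNA of other cell types: 256 of its 321 members had over 0.5% of their UMIs in fibroblast, smooth muscle, endothelial, immune or erythroid markers, against 51 of 397 members at 3 months and at most 8 in each mixed library.

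RefSeq promoter windows (build GRCm38.p6, the mm10 build named in the submitters' processing notes) were at hand for 2 of the 4 uroplakins and for 20 of the 24 genes named below. Those of Upk1a and Upk3a are shown because these 2 genes gave most uroplakin UMIs, that of Fam25c as one of the largest rises and that of Col17a1 as the largest fall. Each is the 250 bases before the transcript start, on the gene's strand: Upk1a at chr7:30612735-30612984 (minus strand), Upk3a at chr15:85016891-85017140 (plus strand), Fam25c at chr14:34355394-34355643 (minus strand) and Col17a1 at chr19:47692043-47692292 (minus strand). Capitals mark matches, on either strand, to 6 motifs. Grainyhead factors were searched as the letters AACNNGTT and Kruppel-like factors as GGGNGTGG. For the AP-1 family the letters were TGANTCA. The motif of the GATA family was spelled AGATAA. For the FOXA factors, pioneer factors of epithelia, it was spelled TGTTTAC. The last motif was direct repeat 1, the kind of paired short site that PPAR binds.
Upk1a: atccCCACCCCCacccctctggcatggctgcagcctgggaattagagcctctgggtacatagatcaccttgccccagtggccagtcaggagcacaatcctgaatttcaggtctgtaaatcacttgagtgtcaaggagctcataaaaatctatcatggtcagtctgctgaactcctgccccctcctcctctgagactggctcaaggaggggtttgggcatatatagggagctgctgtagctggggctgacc
Upk3a: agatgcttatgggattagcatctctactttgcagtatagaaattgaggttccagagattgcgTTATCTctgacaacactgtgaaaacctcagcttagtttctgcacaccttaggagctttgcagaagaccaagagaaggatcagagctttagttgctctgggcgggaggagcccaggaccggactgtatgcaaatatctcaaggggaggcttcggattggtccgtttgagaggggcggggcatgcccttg
Fam25c: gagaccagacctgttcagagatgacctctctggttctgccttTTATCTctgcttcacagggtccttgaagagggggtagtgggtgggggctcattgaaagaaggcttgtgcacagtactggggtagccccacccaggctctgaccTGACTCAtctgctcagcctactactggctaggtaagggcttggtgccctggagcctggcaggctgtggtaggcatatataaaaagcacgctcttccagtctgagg
Col17a1: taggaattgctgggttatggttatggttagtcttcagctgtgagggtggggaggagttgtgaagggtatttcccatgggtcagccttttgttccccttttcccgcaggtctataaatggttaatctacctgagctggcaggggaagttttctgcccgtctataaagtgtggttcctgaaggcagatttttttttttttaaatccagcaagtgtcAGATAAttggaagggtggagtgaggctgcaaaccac
Upk1a held 1 Kruppel-like match, Upk3a and Col17a1 1 GATA match each, and Fam25c 1 GATA and 1 AP-1 match. Over all 32851 windows, 3.64% held the Grainyhead letters, 6.75% AP-1, 9.99% GATA, 15.9% Kruppel-like, 3.17% FOXA and 0.338% direct repeat 1. Among 1306 windows of genes higher in the members, 6.28% held the GATA letters and 5.67% those of AP-1, beside 5.70% and 4.63% in the windows of all tested genes and 5.52% and 5.34% in the 1649 windows of genes lower in the members. The Kruppel-like letters were in 21.1% of the windows of higher genes, 23.95% of those of lower genes and 20.9% of all tested. A match is a run of letters and was not tested as a binding site.

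The values of the 13 selecting genes describe the choice and carry no test. The lowest member share of uroplakins and the highest share outside lay side by side in each library: 1.002% and 0.998% (22 months male), 1.012% and 1.011% (3 months male), 0.717% and 0.716% (12 months, replicate 1), 0.728% and 0.725% (12 months, replicate 2) and 0.554% and 0.554% (24 months). The limit therefore falls inside a continuous range. Upk3a, the partner of Upk1b, gave 6969, 6795, 5679, 5188 and 4675 CPM (counts scaled to a common total, here of all UMIs) in the members, in that order of libraries, and 1693, 1278, 1802, 1766 and 1394 in the other cells. Upk1a gave 5265, 6787, 2962, 3095 and 2252 in the members. The other cells had 2364, 3059, 1326, 1435 and 1055. In both sets of cells Upk1a was higher in CPM in the 2 male libraries than in the 3 mixed ones. The share of ribosomal protein genes also differed between these tables, as given below. In the members Upk1b stood at 921 to 1254 and Upk2, the partner of Upk1a, at 488 to 1078. Of the keratins in the rule, Krt15 was lower in the members of every library, at 0.324 to 0.736 of its level in the other cells, and so was Krt5, at 0.560 to 0.899. Krt18 stood at 1.28 to 1.58 times its level in the other cells.

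**Figure D1:**
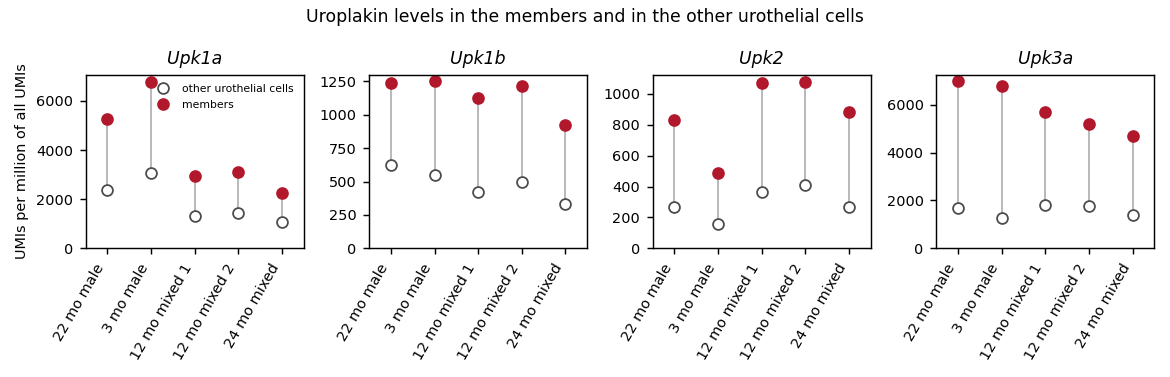
Uroplakin levels in CPM of all UMIs (vertical axes, 1 panel per gene) in the members (filled) and in the other urothelial cells (open) of each library (horizontal axes). The members lie above the others in each panel because they were chosen on the sum of these 4 genes; Upk1a spans 2252 to 6787 in the members.

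Within the members the 4 genes varied together only in part. Across member cells, Spearman's rho of the 2 genes' shares for Upk1b with Upk2 was 0.129 and 0.093 for males, and 0.403 to 0.539 for mixed libraries. For Upk1a with Upk3a it was -0.042 and -0.135 for males, and 0.154 to 0.194 for mixed libraries. These are descriptions over 197 to 560 cells that share a library and were chosen on the sum of the genes. The mixed libraries were deeper than the male ones and had the higher values. Among the mixed ones, Upk1b with Upk2 stood at 0.403 in the deepest (12 months, replicate 2) and 0.539 in the shallowest (24 months). Upk1a with Upk3a had the reverse order, 0.194 in the deepest and 0.156 in the shallowest. The part of depth was not tested.

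The label of superficial cells was met in part. Of 7 superficial markers outside the rule, 6 rose in the members and 1 fell, beside 10.9% of 12311 tested genes that rose and 13.6% that fell. Their median log2 difference was 0.71, beside -0.04 over all tested genes. Krt20 was higher in the members of all 5 libraries but low: 31.2, 37.7, 39.2, 79.4 and 29.8 CPM (from here on computed after leaving out the selecting and mitochondrial genes) in the members, against 12.0, 21.8, 21.5, 60.3 and 17.1 in the other cells. The 2 sets of values overlap between libraries, since the other cells of 12-month replicate 2 exceed the members of 4 libraries. Krt20 UMIs were found in 9.03% to 65.5% of members, against 0.0626% to 5.15% of the barcodes outside the urothelial rule, whose median depth was 1632 to 6477 UMIs. Trp63 was still present in the members, at 163, 253, 124, 67.5 and 152 CPM against 208, 304, 163, 114 and 177 in the other cells, with UMIs in 45.8% to 79.6% of members and 1.03% to 14.6% of the barcodes outside the rule. Few Krt20 reads and retained Trp63 go against reading the members as mature umbrella cells only, so they are called uroplakin-high cells here.

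Of the other superficial markers, Psca and Snx31 differed by more than Krt20. Psca, a small surface protein anchored by a lipid, was the largest rise among the named genes: the members had 581, 412, 1407, 1771 and 1013 CPM, and the other cells 61.7, 85.3, 264, 576 and 156. The members exceeded the others of their own library by 3.07 to 9.42 times (fitted log2 difference 2.42, SE 0.27, adjusted p = 0.00491; edgeR quasi-likelihood test with the library as a block, Benjamini-Hochberg over all tested genes, here and below). Psca UMIs were in 46.1% and 34.8% of the members of the male libraries and 92.1% to 97.5% of those of the mixed ones, against 0.731% to 1.67% and 26.0% to 49.8% of the barcodes outside the rule. In the male libraries few cells held much of it: 16 of 321 members had 42.5% of the Psca UMIs at 22 months, and 19 of 397 had 53.6% at 3 months. Snx31, a sorting nexin that binds uroplakins on multivesicular bodies, had 197, 222, 231, 268 and 223 CPM in the members against 90.3, 109, 105, 124 and 99.3. Its 2 sets do not overlap (1.13, SE 0.05, adjusted p = 1.9e-10). Upk3b, a relative of Upk3a that can also pair with Upk1b, rose by 0.71 (SE 0.06, adjusted p = 8.2e-08). Rab27b, a small GTPase of uroplakin-carrying vesicles, and Grhl3, a Grainyhead factor of barrier epithelia, each rose by 0.38 (adjusted p = 0.000119 and 0.00785). For Upk3b, Rab27b and Grhl3 the ranges over libraries overlap: 165 to 224 CPM in the members and 93.8 to 167 in the others for Upk3b, 163 to 211 and 135 to 179 for Rab27b, and 55.8 to 96.9 and 31.5 to 87.3 for Grhl3. Upk3bl, a further gene of the Upk3 family, went the other way: 8.82, 18.8, 5.90, 3.03 and 6.11 CPM in the members against 85.7, 89.7, 21.9, 17.3 and 25.7 in the others (-2.24, SE 0.13, adjusted p = 1.5e-09).

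Across all genes, 1343 of 12311 were higher in the members and 1676 lower at an adjusted p under 0.05. The 13 selecting genes were not among those tested. DESeq2 called 1839 in place of 3019, the 2 male libraries alone 860 and the 3 mixed ones alone 4163. The count was 1833 without replicate 1 at 12 months and 1701 without the 24-month library. Without the 22-month male library it was 3064. Of 10374 genes tested in the male libraries alone, 479 rose and 381 fell. Of 11935 in the mixed ones alone, 2048 rose and 2115 fell. List counts from these 2 runs are read beside these numbers.

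The other named rises were of several kinds. Fam25c, whose function is little known, had 143, 75.3, 418, 481 and 401 CPM in the members and 40.9, 23.2, 85.7, 154 and 70.2 in the other cells (2.07, SE 0.12, adjusted p = 3.9e-06). It was higher in the members of each library, and lowest in the 2 male libraries in both sets. Rgs5, a regulator of G-protein signalling better known from pericytes, had 14.2, 21, 98.6, 107 and 74.4 CPM against 9.72, 7.26, 18.5, 23.0 and 16.7 (2.13, SE 0.12, adjusted p = 2.3e-08). Arg2, the mitochondrial arginase, had 33.2 to 52.7 CPM against 8.70 to 15.9 (1.80, SE 0.11, adjusted p = 1.5e-09). Agr2, a disulfide isomerase of secretory cells, rose by 1.71. Ttr, the carrier of thyroid hormone and of retinol-binding protein, rose by 1.62. Pdzk1ip1, a membrane protein that binds PDZ domains, rose by 1.58. The long non-coding RNA Snhg11 rose by 1.53.

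Sprr2a1, Sprr2a2, Sprr2a3 and Sprr2b, which encode small proline-rich proteins of the cornified envelope, rose by 1.88, 2.02, 1.45 and 1.80. These genes are near-identical copies, so reads may have been split among them and single values are uncertain. Sprr2a3, the most abundant of them, had 158 to 1318 CPM in the members and 135 to 523 in the others. It was higher in all 5 libraries, but by only 1.17 times at 3 months, and its adjusted p of 0.0242 rose to between 0.0594 and 0.102 when the 22-month, 24-month or either 12-month library was left out. In the mixed libraries alone, Sprr2a1 and Sprr2b had adjusted p = 0.056 and 0.0601 in edgeR. Of 7 tested genes of the cornified envelope list, 6 rose and none fell, beside 10.9% and 13.6% of all tested genes. Among them Sprr1a, at 4344 CPM on average in the members, rose by 0.17.

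The largest of the 12 named falls was that of Col17a1, a collagen of the hemidesmosome. It gave 1, 7, 13, 6 and 13 UMIs in the members of the 5 libraries (0.678, 5.07, 1.32, 1.30 and 1.73 CPM) against 22.3, 38.6, 12.5, 7.54 and 14.5 CPM in the other cells (-3.13, SE 0.19, adjusted p = 1.7e-09). The 2 sets do not overlap. Dlk2, a non-canonical Notch ligand, fell by 2.98 on the log2 scale. Il33, a nuclear alarmin of barrier epithelia, had 7.97 to 14.7 CPM in the members against 26.1 to 68.0 in the others (-2.26, SE 0.11, adjusted p = 1.9e-10). The gasdermins Gsdmc2 and Gsdmc3, of a family of pore-forming proteins, fell by 1.81 and 1.86. These 2 genes are close copies, so reads may have been split between them. The other 6 were Iffo2 (-2.0), Ehd2 (-1.96), a protein of caveolae, the aldehyde oxidase Aox3 (-1.93), Palld, an actin-bundling protein (-1.83), Rgs10 (-1.81) and the lactate exporter Slc16a3 (-1.78), with members at 4.52 to 13.1 CPM on average. In the male libraries alone Iffo2 had an edgeR adjusted p of 0.0605.

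**Figure D2:**
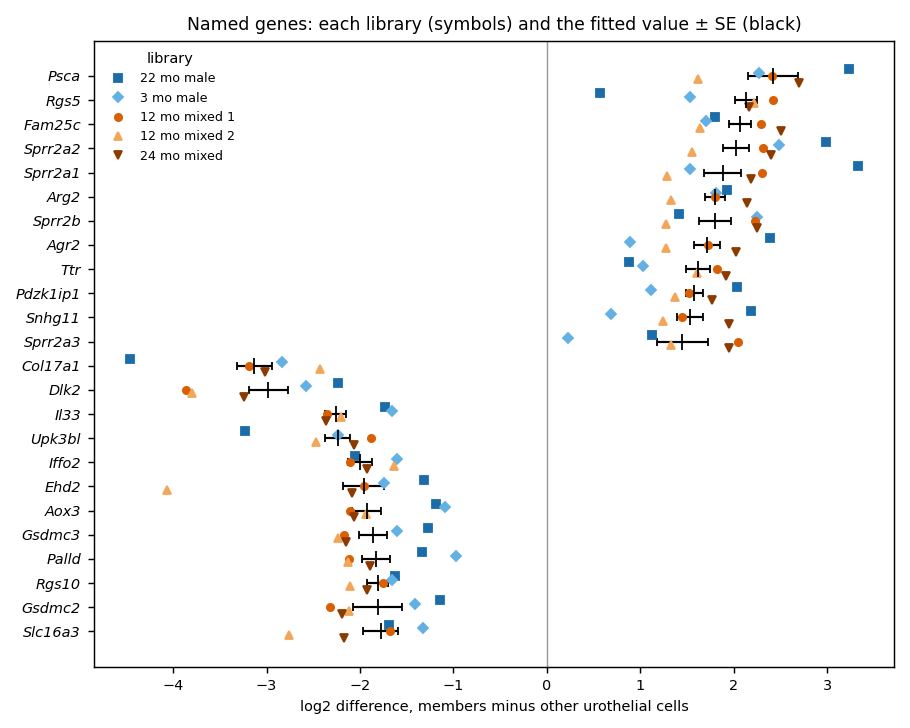
Log2 difference between members and other urothelial cells (horizontal axis) for the 24 named genes (vertical axis), with 1 symbol per library and the fitted value ± SE in black. All symbols of the 12 upper genes lie above 0 and all of the 12 lower genes below 0, from Psca at 2.42 to Col17a1 at -3.13.

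Basal genes were lower in the fit over the 5 libraries. All 14 tested members of the basal list fell, beside 13.6% of all tested genes, with a median of -0.74. Of these, 12 were lower in each of the 5 libraries. Itga3 and Itgb4, integrin subunits that bind laminin, fell by 1.63 and 1.09. Bcam, a laminin receptor, fell by 1.08, and Cd44, the hyaluronan receptor, by 0.76. Trp63 and Shh, the ligand that basal cells send to the stroma, fell by only 0.37 and 0.28. Krt14 gave at most 4 UMIs in the members of any library and 12 to 47 in the other cells. Of 8 tested keratins outside the rule, Krt14, Krt6a (-2.23), Krt13 (-1.82) and Krt4 (-1.02) fell and Krt20 rose (0.73, SE 0.10, adjusted p = 4.0e-05). Of all tested genes 10.9% rose and 13.6% fell. In the male libraries alone, where 7 keratins were tested, 2 rose and 2 fell, with a median of 0.05. Over all 10374 genes tested there, 479 rose and 381 fell. Krt17 was too rare to test.

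Among 22 transcription factors of the urothelium, 3 rose and 10 fell, beside 10.9% and 13.6% of all tested genes; the share that rose is near that of all genes. Grhl3, Zfp750 (0.52), a factor of terminal epidermal differentiation, and Gata3 (0.19, higher in 3 of 5 libraries) rose. Klf4, also a factor of epithelial differentiation, fell most: the members had 142, 91.3, 76.9, 154 and 86.9 CPM and the other cells 263, 201, 237, 344 and 245 (-1.29, SE 0.12, adjusted p = 6.7e-05). The 2 sets do not overlap. Id1 (-0.49), Klf3 (-0.45), Grhl2 (-0.44), Klf6 (-0.42) and Klf5 (-0.42) fell as well. In the bulk libraries described below, Klf4 (4.14), Klf6 (2.52), Id1 (1.34), Klf5 (0.96) and Klf3 (0.38) were higher and Grhl2 (-0.55) lower in dissociated than in intact bladder, and the part of dissociation in the fall was not tested. Pparg, the nuclear receptor that drives urothelial differentiation, had 120 CPM in the members and 123 in the others on average (0.00, SE 0.06, adjusted p = 0.967). Without the 24-month library none of the 22 rose and 8 fell, so Grhl3, Zfp750 and Gata3 lost the call. Over all 11606 genes tested in that run, 819 rose and 882 fell, fewer than in the fit over 5 libraries. In the male libraries alone 3 rose and 3 fell, beside 479 and 381 of all 10374 genes tested there.

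Genes of the junctions and of apical transport are read beside the 10.9% of all tested genes that rose and the 13.6% that fell. Of 19 tight junction and polarity genes, 5 rose and 2 fell, the latter below the share of all genes. Cldn8, a claudin of tight urinary epithelia, had 65.8, 74.6, 60.6, 45.5 and 54.7 CPM in the members against 28.4, 34.5, 24.5, 17.4 and 15.0 (1.43, SE 0.09, adjusted p = 2.9e-09), with no overlap. Cldn23 (0.74), Marveld2 (0.39), Tjp3 (0.31) and Cgn (0.28) also rose, and the polarity genes Pard3 (-0.44) and Mpp5 (-0.39) fell. Cldn4, the most abundant claudin at 1298 CPM in the members, differed by -0.05 (SE 0.12, adjusted p = 0.822). Without the 24-month library 3 of the 19 rose and 2 fell. Of 18 apical trafficking genes, 9 rose and 2 fell, the latter near the share of all genes. Snx31 and Rab27b are among these rises and were already counted with the superficial markers. Rab25, a GTPase of apical recycling, rose by 0.52, Rab11a by 0.42, the clathrin adaptor Ap1m2 by 0.41 and the SNARE protein Snap23 by 0.40. Stx3, an apical syntaxin, fell by 0.48 and Mal2 by 0.25. Both lost the call without replicate 2 at 12 months or the 24-month library, where 6 and 7 of the 18 rose. Of 9 desmosome and plakin genes, Evpl rose (0.31) and Pkp3 fell (-0.38), which is near the share of all genes in both directions.

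Of 19 genes of PPAR and lipid handling, 9 rose and 3 fell, beside 10.9% and 13.6% of all tested genes; the share that fell is near that of all genes. In the male libraries alone 4 rose and 1 fell, beside 479 and 381 of all 10374 genes tested there. Acer2, an alkaline ceramidase, rose by 1.39 (SE 0.10, adjusted p = 2.3e-07), from 31.4 to 77.3 CPM on average. The fatty-acid-binding proteins Fabp4 and Fabp5 rose by 0.89 and 0.88, Elovl6, which lengthens fatty acids, by 0.54, and the desaturases Scd1 and Scd2 by 0.46 each. Pdk4 (-0.53) and Cpt1a (-0.39), enzymes of fuel choice and of fatty-acid use in mitochondria, were among those that fell.

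The next lists are read beside the 10.9% of all tested genes that rose and the 13.6% that fell. For the male libraries alone the numbers are 479 and 381 of 10374 genes, and for the mixed ones alone 2048 and 2115 of 11935. Of 21 detoxification and redox genes, 4 rose and 11 fell, and in the male libraries alone 4 rose and 5 fell. The summed level of this list was nevertheless higher in the members of all 5 libraries, at 1.19 to 1.36 times that of the other cells. Gstm1, a glutathione transferase and the most abundant gene of the list, rose by 0.49 to 55762 CPM, and Mt2, a metallothionein, by 0.40. Aldh3a1 fell by 1.05, Cbr2 by 0.78 and Gsto1 by 0.49. Of 15 solute genes, 6 fell, among them the potassium channel Kcnn4 (-1.09) and the glucose transporter Slc2a1 (-0.68), and the ATP receptor P2ry2 rose, at 1.77 CPM. Without the 24-month library 2 solute genes fell and none rose, without the 3-month one 4 fell and 2 rose, and in the male libraries alone 2 fell and 2 rose. Of 13 mucosal defence genes, 2 rose and 4 fell, and without the 24-month library or replicate 1 at 12 months 1 rose and 2 fell. The list's median was 0.01, and its share of rises is near the 10.9% of all tested genes. Of 26 genes of the response to dissociation, none rose and 17 fell, with a median of -0.36; 25 of the 26 were higher in dissociated than in intact bulk bladder, described below. The count that fell was 11 without the 24-month library, 12 without the 3-month one and 9 with the top 10% of cells as members. Fos, an immediate early gene, stood at 1596 CPM in the members and 2194 in the others (-0.41, SE 0.06, adjusted p = 2.9e-05). Among 10 cell cycle genes only Stmn1, which binds tubulin, fell (-0.45), near the share of all genes, and of 77 ribosomal protein genes 3 fell, below it. The ribosomal count depended on the libraries: 20 rose and none fell in the male ones alone, and 3 rose and 46 fell in the mixed ones alone.

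**Figure D3:**
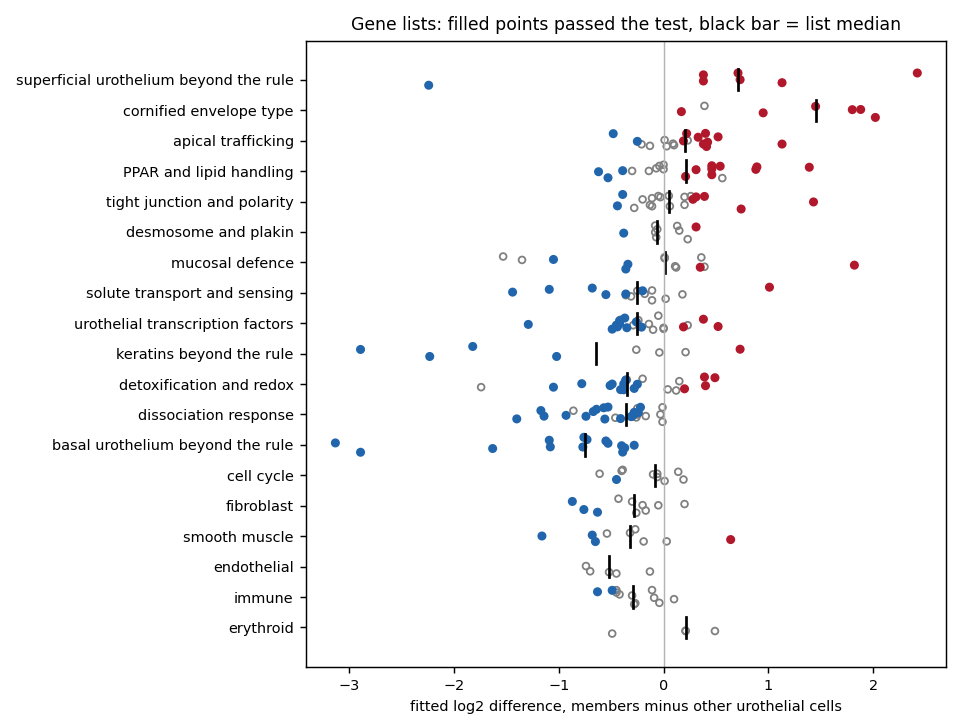
Fitted log2 difference between members and other urothelial cells (horizontal axis) for each tested gene of 19 lists (vertical axis). Filled points passed the test, open points did not, and bars are list medians: the basal list lies below 0 in full (median -0.74), and Upk3bl at -2.24 stands apart in the superficial list.

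Markers of other cell types did not move one way. The summed fibroblast list was lower in the members of both male libraries (5641 against 8224 CPM at 22 months and 2863 against 4371 at 3 months) and higher in those of the 3 mixed ones (1249 against 986, 876 against 722 and 1045 against 942). Of 10 fibroblast genes, none rose and 3 fell, beside 10.9% and 13.6% of all tested genes. Of 9 smooth muscle genes, 1 rose (Mylk) and 3 fell, and Mylk lost the call without either 12-month library or the 24-month one. Of 12 immune genes, 2 fell, which is near the share of all genes, and of 5 endothelial and 4 erythroid genes none passed the test. Without the 22-month male library 1 smooth muscle gene and no immune gene fell. In runs without cells over the 0.5% limit, or without those of highest doublet scores, no fibroblast, smooth muscle or immune gene fell. There, 1 fibroblast and 1 smooth muscle gene rose. The 0.5% limit is set on these same markers, so the first run could not test them. It also left out 777 of 966 other cells at 22 months. Over all genes, 1354 rose and 1711 fell of 12060 in the first run, and 1385 and 1632 of 12065 in the second. In the male libraries alone 5 of 10 fibroblast, 3 of 9 smooth muscle and 8 of 10 immune genes fell and none rose. Over all 10374 genes tested there, 381 fell and 479 rose. All 10 fibroblast markers, Dcn and Col1a1 included, had UMIs in the members of each library, and at 0 in some libraries were Synpo2, Myh11, Des and Cnn1 of smooth muscle, Cd79a of the immune list and several endothelial and erythroid genes. With the cells over the 0.5% limit left out, 3065 genes passed the test, the basal list had 14 lower genes and the superficial list 6 higher and 1 lower. In the mixed libraries mitochondrial genes made up 6.28%, 5.93% and 6.81% of the members' UMIs and 5.38%, 5.49% and 5.05% of the others'.

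The members also differed among themselves. Split at their median uroplakin share, the upper members had 132 genes higher and 94 lower than the lower members, which is 1.27% and 0.903% of 10415 tested. DESeq2 called 61, and without replicate 1 at 12 months, the 24-month library or the 3-month library the count was 77, 59 and 392. Rgs5 rose again (1.14, SE 0.10, adjusted p = 6.7e-11), from 37.0 to 86.0 CPM on average, as did Ttr (0.88) and Cldn8 (0.87). The secreted chaperone Clu rose by 0.87. Gsdmc3 (-1.16), Gsdmc2 (-1.02), Rgs10 (-0.99), Car8, a protein related to the carbonic anhydrases (-0.96), and Ank, a pyrophosphate transporter (-0.91), were the 5 largest falls. Without the 24-month library Ttr, Gsdmc3, Rgs10, Car8 and Ank lost the call (edgeR adjusted p = 0.0521 to 0.239). Without replicate 1 at 12 months Rgs10, Car8 and Ank lost it (0.0683 to 0.198), without replicate 2 Car8 (0.052), and without either male library Clu (0.143 and 0.071). Of the superficial markers, Krt20 (0.51), Upk3b (0.40) and Snx31 (0.39) rose, and Psca had 1359 CPM in the upper and 673 in the lower members (1.11, SE 0.24, adjusted p = 0.171). Trp63 fell by 0.24 (adjusted p = 0.0422).

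All urothelial cells of each library were also ordered by uroplakin share and cut into 8 equal bins. Psca had 1315 ± 579 CPM (SD, n = 5 libraries) in the highest bin and 55.6 ± 58.4 in the lowest. Cldn8 had 71.9 ± 11 and 14.5 ± 9.47, and Snx31 248 ± 22.9 and 40.6 ± 9.30. Col17a1 had 1.39 ± 1.59 in the highest bin and 45.9 ± 28.9 in the lowest, Klf4 97.1 ± 37.7 and 435 ± 92.1, and Trp63 134 ± 54.5 and 250 ± 88.3. Bins of a library are parts of 1 sample, so these values are a description.

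**Figure D4:**
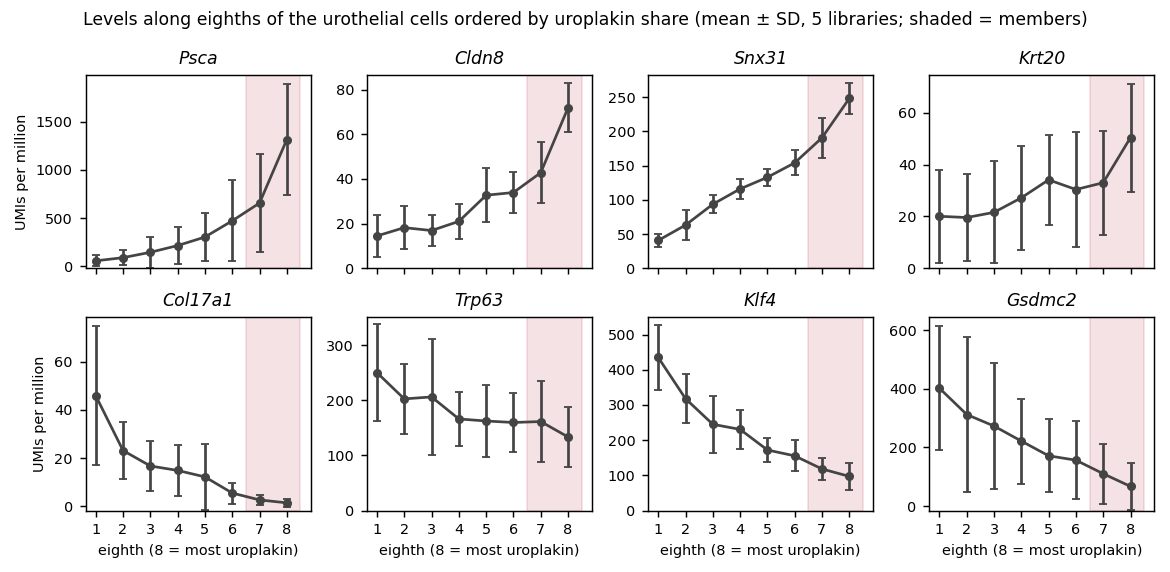
Level in CPM (vertical axes, mean ± SD over 5 libraries) of 8 genes in 8 equal bins of urothelial cells ordered by uroplakin share (horizontal axes, rightmost bin highest; shading marks the members). Psca rises to 1315 and Klf4 falls to 97.1 in the highest bin, while Krt20 reaches only 50.5.

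Male and mixed libraries gave different sizes of the difference for some genes. The interaction of member status with sex mix passed the test for 399 of 12311 genes: 329 (2.67%) had the higher difference in the male and 70 (0.569%) in the mixed libraries. Without the 22-month or the 3-month male library, which leaves a lone male library assumed to vary like the others, 274 and 146 genes passed, and without replicate 1 at 12 months 208. Sqle, an enzyme of sterol synthesis, had 48.8 and 49.98 CPM in the members of the male libraries against 17.2 and 17.7 in the other cells, but 56.8, 61.9 and 62.7 against 46.3, 58.0 and 53.8 in the mixed ones (interaction 1.44, SE 0.19, adjusted p = 1.8e-05). The members' levels were alike and the other cells of the male libraries were low. Of 77 ribosomal protein genes, 41 had the higher difference in the male libraries, as had 9 of 21 detoxification genes, among them Aldh3a1 (0.86) and Gsto1 (0.58). Chemistry, gene list and depth split the libraries the same way and cannot be told apart from sex mix.

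No gene differed between the members of older (22 and 24 months) and younger (3 and 12 months) libraries. With the sex mix as a term, 0 of 11062 genes (0%) passed in edgeR and 1 in DESeq2. An unadjusted p under 0.05 was reached by 180 genes in the first tool and 77 in the second. The count was 41 without the 24-month library and 21 without replicate 1 at 12 months. The first leaves 1 older library, which is assumed to vary like the others. This does not show that the ages are alike. In simulated data for this comparison, over 10814 genes, the test recovered 90 of 100 changes of 1 and 29 of 100 of 0.5 on the log2 scale. The simulated libraries differed in depth and random spread, but held no further gene differences between libraries, as the real ones do. That setting is more favourable than these data, so the recovery does not give the power of the real test.

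The same rule was then applied to samples that the selection had not used. In the sections, where each spot holds several cells, 156 of 624, 139 of 558, 96 of 385 and 105 of 420 spots over the urothelial limits formed the uroplakin-rich sets, and 26.0% of 13861 genes were higher in them and 28.6% lower than in the other such spots. All 12 named rises were higher in these spots, and 9 of the 12 named falls were lower. Upk3bl (-0.25, SE 0.18, adjusted p = 0.244), Gsdmc2 (-0.11) and Gsdmc3 (-0.07) did not pass. By sign alone, with or without passing the test in the sections, 89.1% of all genes called higher in the members had a positive difference in these spots and 71.7% of those called lower a negative one, beside a positive one in 53.6% of all tested genes. The urothelial transcription factors went another way than in the cells: 15 of 22 were higher in the spots, Pparg (0.80), Grhl2 (0.22) and Klf5 (0.15) among them, and only Klf4 was lower (-0.71). Of 14 basal genes 6 were lower and 2 higher, Shh (0.17) among the latter, with a median of -0.14. Krt20 had 252, 268, 236 and 182 CPM in the uroplakin-rich spots against 95.8, 121, 71.7 and 56.2 (1.51, SE 0.08, adjusted p = 5.0e-08), without overlap. These levels were above those of the members in the cell libraries (29.8 to 79.4), in tables that were made separately. Psca had 3830 to 4973 CPM against 1418 to 2418, and Fam25c 2644 to 3611 against 1008 to 1927. Trp63 had 158 and 155 CPM on average (0.05, SE 0.06, adjusted p = 0.456). The largest rises were Slc5a1 (1.81) and Kcnj15 (1.80), a sodium-glucose transporter and a potassium channel, Slc16a12 (1.79), Fabp4 (1.74) and Cntnap2 (1.65). The largest falls were Hspb7 (-2.36), Clec3b (-2.18), Apod (-2.15), Igkc (-2.14) and Chrdl1 (-2.07). Igkc, an immunoglobulin chain, had an edgeR adjusted p of 0.101 to 0.182 when 1 of 3 sections was left out (replicate 1 at 22 months or either at 14 months). The uroplakin-rich spots had 35969 to 63722 UMIs at the median against 19536 to 23087 in the other spots. All 10 fibroblast, 10 smooth muscle, 8 endothelial and 12 immune genes were lower in them, and the part of this tissue makeup in the gene differences was not tested.

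The 2 further droplet libraries allow no test. In the nuclei library, 148 of 592 urothelial nuclei were selected, and 8 of the 8 named rises and 11 of the 12 named falls with at least 10 UMIs went the same way. Slc16a3, with 3 and 7 UMIs, did not. Of all genes called higher in the whole-bladder cells, 73.6% had a positive difference in the nuclei, and of those called lower 67.6% a negative one, beside a positive one in 51.8% of all tested genes. Psca had 1073 CPM in the selected nuclei and 292 in the rest, and Krt20 116 and 41.6. In the detrusor-enriched library, 255 of 1021 cells were selected and all 24 named genes went the same way. Psca had 848 and 100 CPM there, and Col17a1 3.86 and 53.3. In that library 98.2% of the genes called higher and 92.1% of those called lower went the same way by sign, beside a positive difference in 56.2% of all tested genes. Its selected cells had a median of 2281 UMIs and the rest 696, a depth gap whose part was not tested.

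Bulk RNA of dissociated and intact bladder placed the same genes in tissue, where fewer cells of a type and less RNA per cell cannot be told apart. All 4 uroplakins were lower after dissociation. Upk2 had 519, 459 and 512 CPM in intact bladder and 142, 98.8 and 153 after dissociation (-1.81, SE 0.17, adjusted p = 0.000108), without overlap, and Upk1b, Upk1a and Upk3a fell by 1.29, 1.00 and 0.95. In this comparison 27.9% of 16538 genes were higher and 31.3% lower after dissociation. Other urothelial genes of the rule were not lower: Sfn (1.61), Krt8 (1.01), Epcam (0.90), Krt15 (0.74) and Krt19 (0.55) rose, and Krt5, Krt7, Krt18 and Perp did not pass (0.10 to 0.38). The makeup of the tissue RNA moved too. All 10 smooth muscle genes were lower after dissociation (median -3.73), and 10 of 10 fibroblast, 5 of 5 erythroid, 10 of 12 immune and 6 of 8 endothelial genes were higher; the part of this shift in the values below was not tested. Of the 11 named rises that could be tested, 9 were lower and none higher. Fam25c had 89.6, 89.3 and 90.9 CPM in intact and 10.4, 7.21 and 10.9 in dissociated bladder (-3.13, SE 0.16, adjusted p = 4.8e-06). Ttr fell by 4.03, Psca by 2.59, Cldn8 by 2.51, Acer2 by 2.34 and Snx31 by 1.54. Arg2 (-0.49, adjusted p = 0.0879) and Agr2 (0.52, adjusted p = 0.0787) did not pass. Of the 12 named falls, 6 were higher after dissociation, among them Il33 (2.45), and Dlk2 and Palld were lower. Klf4, low in the members, was 4.14 higher on the log2 scale (adjusted p = 2.1e-06), and Krt20 had 108, 95 and 103 CPM in intact and 42.3, 43.4 and 96.0 in dissociated bladder (-0.64, SE 0.31, adjusted p = 0.111). Without the third dissociated library the Krt20 difference was -1.15 (edgeR adjusted p = 8.3e-05).

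**Figure D5:**
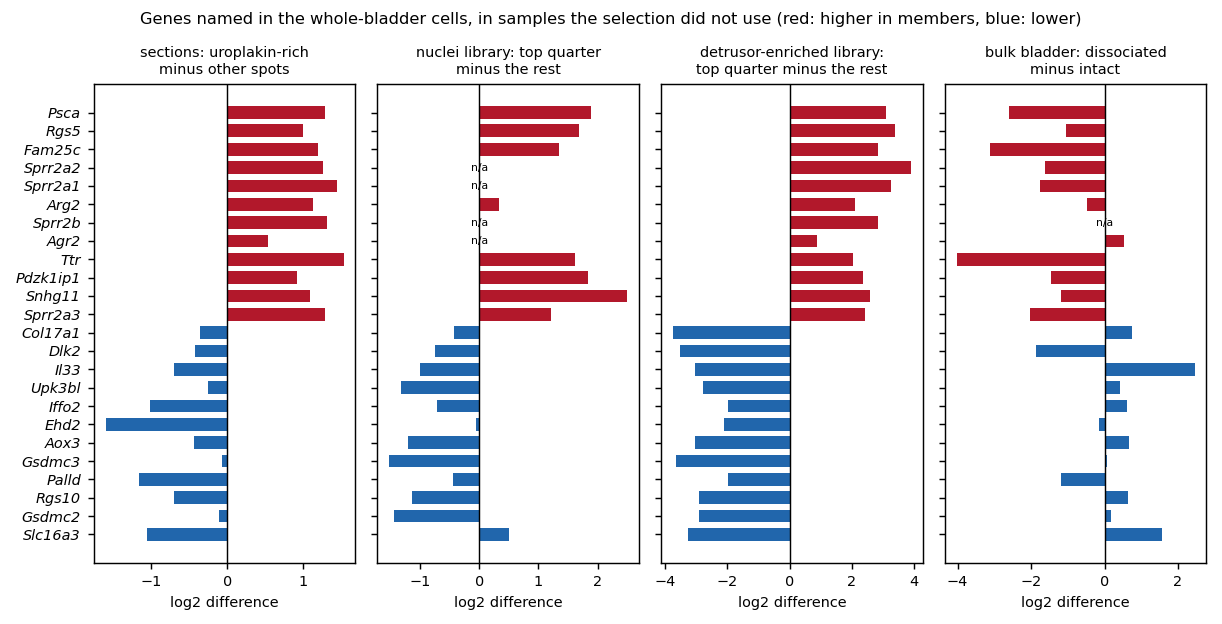
Log2 difference (horizontal axes) of the 24 genes named in the whole-bladder cells (vertical axis) in the sections, the nuclei, the detrusor-enriched cells and the bulk libraries; red genes were higher in the members and blue ones lower, and n/a marks genes not measured well enough. Psca is higher in the uroplakin-rich set of the 3 left panels and 2.59 lower on the log2 scale after dissociation in the right one.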

How the data were processed

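Libraries of these kinds were used: whole-bladder cells, nuclei, detrusor-enriched cells, Visium sections and bulk RNA. The authors deposited whole-number counts, as UMIs per barcode or spot for the droplet and Visium tables and as reads per gene symbol for bulk. The submitters' processing notes name bcl2fastq, Cell Ranger, Space Ranger, Subread, featureCounts and mm10; versions are not given in the sources used here. The detrusor-only library was not used here.

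The members and gene lists were chosen with earlier results of these data known. Symbols listed more than once were summed (48 in the male and 66 in the mixed tables), and 27409 genes common to the 5 tables, without mitochondrial and selecting genes, were kept. No doublets were removed in the reported fit; leaving them out was an alternative. UMIs were summed over members and over other cells per library and tested with edgeR 4.0.16 (R 4.3.3; TMM, filterByExpr, robust quasi-likelihood, two-sided, Benjamini-Hochberg) with the library as a block, since both sums come from the same pool. Sections had the section as a block, and bulk had none. DESeq2 1.42.0, other scalings and filters and left-out libraries were alternatives.

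Genes were named as the 12 largest rises and 12 largest falls that passed the test, moved one way in all 5 libraries and averaged 10 CPM or more over the 10 sums, passing over predicted genes. Other comparisons used 5 each way, and lists up to 6 called genes. A few genes that this rule names are not reported here. In simulated data on these libraries, the test of members against others recovered 97 of 100 genes changed by 1 on the log2 scale and 54 of 100 changed by 0.5, over 12012 genes. Bulk libraries held 23083752 to 68760791 reads, and the members' sums 1440754 to 10807481 UMIs. In fits with a block, errors cover how the difference within a library or section varies from one to the next. In fits without a block they cover the spread between libraries. Neither kind covers counting bias.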

Additional observations from a re-analysis of the deposited data

Results flagged for a closer look

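The interaction term of edgeR passed for 4 of the 24 genes named in the main comparison. Their difference between members and other urothelial cells was not the same in the 2 male and the 3 mixed libraries. Over all 12311 tested genes, 2.67% had a higher and 0.569% a lower difference in the male libraries by this test. Adjusted p-values are below, and log2 values are the male minus the mixed difference. The libraries also differ in chemistry, gene list, depth, ribosomal share and urothelial share of barcodes, which cannot be told apart from sex mix. Of these 4, Rgs5 rose less in the male libraries (-1.10, adjusted p = 0.0378), where its difference was 0.57 and 1.53 against 2.16 to 2.42 in the mixed ones. Gsdmc2 (1.12, adjusted p = 8.6e-08), Gsdmc3 (0.95, adjusted p = 0.0129) and Palld (1.00, adjusted p = 0.0415) fell less in the male libraries.

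A further 10 genes were named because they passed this same test, so their values describe that choice. They had differences that did not overlap between the 2 kinds of library. The difference was higher in the male libraries for Rasa2 (1.83), Cyp2f2 (1.70), Sowahb (1.61), Alox12 (1.58) and Sqle (1.44). It was lower there for Fmo2 (-2.35), Cntrl (-1.86), Tpcn1 (-1.43), Mylk (-1.33) and Daglb (-1.32). Fmo2, a flavin-containing monooxygenase, had 14.9 and 5.80 CPM in the members of the male libraries against 34.8 and 16 in the other cells, and 11.5, 8.22 and 10.4 against 4.59, 2.95 and 5.33 in the mixed ones. Its sign therefore differs between the 2 kinds of library, as does that of Tpcn1 and Mylk. The summed fibroblast list moved in the same way (lower in the members of the male and higher in those of the mixed libraries), and its part in these 3 genes was not tested. Without the 22-month male library Rasa2, Cyp2f2, Sowahb and Mylk lost the call (edgeR adjusted p = 0.255, 0.11, 0.334 and 0.0839), and without the 3-month one Cyp2f2, Cntrl, Tpcn1 and Daglb (0.16, 0.765, 0.123 and 0.308). Sowahb, Cntrl and Daglb also lost it without replicate 1 at 12 months (0.0539, 0.0686 and 0.0686), Sowahb without replicate 2 (0.0676) and Cntrl without the 24-month library (0.0602).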

How the results depend on the processing

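No gene named for the size of its change in a comparison changed direction under that comparison's alternative runs. In cells and sections these genes were chosen to move one way throughout, or without overlap between kinds of library. Runs on part of the libraries or sections therefore could not test their direction. Mylk, called higher as a smooth muscle gene, differed by -0.56 and -0.43 in the 2 male libraries. For members against other cells, the 3019 calls became 1839 with DESeq2, 860 in the 2 male libraries alone and 36 with no replicate block, which leaves the spread between libraries in the error; leaving out 1 library gave 1701 to 3470. The fit with the library as a block is the one reported because both sums of a library come from 1 pool. The other settings (scaling, filter, 1000 UMIs, top 10%, lowest 25% as reference, thinning to 1000 UMIs, doublets, other-type RNA, mitochondrial limit, mixed libraries alone) gave 2380 to 4163 calls. The basal list had 8 to 14 lower and 0 higher genes, and the superficial list 5 or 6 higher genes, over 19 settings with the block; with no replicate block the basal list had 2 lower genes, and the superficial list 0 higher and 1 lower.

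For upper against lower members, the 226 calls became 61 with DESeq2 and 0 in edgeR with no replicate block (133 at an unadjusted p under 0.05), a setting added after the data were seen; left-out libraries gave 59 to 392. The interaction had 146 to 368 calls with 1 library left out. Older against younger members gave 19 calls with no filter and 0 to 41 with 1 library left out. For bulk, 8128 to 9782 genes were called with 1 library left out, and 10118 with the replicate block in place of 9798. Deviations of same-numbered intact and dissociated bulk libraries correlated at 0.203, 0.344 and -0.07. With 1 of the 3 below 0 the libraries were not treated as paired, which does not show that they are unrelated. The sections gave 5900 to 7237 calls with 1 section left out. In simulated data the interaction test recovered 37 of 100 changes of 1 and 1 of 100 of 0.5 on the log2 scale. At that simulated spread most small differences between kinds of library would be missed. Some passed in the real data: 41 of 77 ribosomal protein genes were higher, with a list median of 0.24, beside 2.67% of all tested genes.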

Other observations

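Sterol synthesis was looked at because Fdps and Sqle stood out, so the list of 21 genes was chosen after values were seen and supports nothing by itself. Of these genes, 11 were higher in the members and 1 lower, with a median log2 difference of 0.33 beside -0.04 over all tested genes, of which 10.9% were higher and 13.6% lower. Fdps, which makes farnesyl diphosphate, rose by 1.31 (SE 0.06, edgeR adjusted p = 1.9e-10), at 239 CPM in the members and 96.0 in the other cells on average, and was higher in all 5 libraries. Dhcr7 (0.97), Nsdhl (0.91), Mvd (0.85) and Mvk (0.75), enzymes of the same pathway, rose as well. In the sections, 19 of the 21 genes were higher in the uroplakin-rich spots and none lower, beside 26.0% and 28.6% of all genes tested there. Fibroblast, smooth muscle, endothelial and immune markers were lower in these spots, and the part of this tissue makeup was not tested.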
